A study of Mus musculus with 48 samples.

Results

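Transcripts of 36 genes of fatty acid uptake and mitochondrial beta oxidation were followed across mouse hindlimb muscles by RNA sequencing. The genes were chosen by name, as those that bring fatty acids into the muscle fibre, activate them, carry them into mitochondria, oxidise them or control that flow, and all 36 were among the 27179 genes of the count table. The study sampled 4 muscles of male FVB/NJ mice, 6 late in gestation (embryonic stage E18.5) and 6 adult. Soleus and vastus intermedius are the slow-biased muscles of the shank and the thigh, and gastrocnemius and vastus lateralis are their fast-biased neighbours. The labels name no transgene and no treatment in any group, so the groups differ in muscle and stage. The series' design text gives the adults as postnatal day 56, while the growth protocol gives a greater age. Each group holds 6 libraries except adult vastus intermedius, which holds 5, since 1 library of that label had an embryonic profile and was left out by the rule that defines the gene set. In that library the 36 genes took 0.372% of all counts, against 1.07% to 1.57% in the other 5 adult vastus intermedius libraries. The titles number 6 animals at each stage, each giving all 4 muscles. The count columns carry a date tag in place of the animal number, with 1 library of each muscle to a tag, so a tag is taken as 1 animal and called collection A to F within its stage.

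Long-chain fatty acids reach a fibre after lipoprotein lipase frees them from circulating triglycerides, cross the membrane with the help of CD36 and transport proteins, and are carried in the cytosol by binding proteins. Acyl-CoA synthetases activate them, and the carnitine shuttle (a carnitine palmitoyltransferase on each side and a translocase between) moves them into mitochondria, where the malonyl-CoA made by acetyl-CoA carboxylase 2 restrains entry. Inside, each round of beta oxidation runs through an acyl-CoA dehydrogenase, a hydratase, a hydroxyacyl-CoA dehydrogenase and a thiolase, with electrons passed through the electron transfer flavoprotein and its dehydrogenase to ubiquinone. Slow fibres are known for a high oxidative capacity, and fatty acid oxidation is known to rise in muscle after birth, when milk replaces the placental supply.

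Library totals were 14935541 to 32383982 counts, so a floor of 3 counts corresponded to a CPM (counts scaled to a common library total) of 0.093 to 0.201, and 20 genes held 11.3% to 45.5% of each library's counts. Levels are given as CPM scaled with the trimmed mean of M values (TMM), overlap between libraries is judged on them, and gene positions are from RefSeq on GRCm38.p6. The TMM factors were 0.54 to 0.93 in the adult and 1.20 to 1.52 in the E18.5 libraries, so adult against E18.5 values were also computed with library totals alone. Summed per-length levels of 13 skeletal fibre markers were 70963 to 175676 TPM (read density per base of gene, scaled to the same sum in each library) in adult and 23155 to 72966 TPM in E18.5 libraries, while 4 hepatocyte markers stayed at or below 0.331 TPM in the adults. The brown adipocyte marker Ucp1 was at 243 TPM in the adult vastus intermedius library of collection C and at or below 1.19 TPM in every other library. The stages carry different date tags (4 dates at E18.5 and 5 for the adults), so stage and date cannot be told apart. In bulk muscle, fewer cells of a type and less RNA per cell cannot be told apart either.

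The 36 genes together took a median of 1.45% of all counts in adult soleus (1.23% to 1.62%), 1.33% in vastus intermedius (1.07% to 1.57%), 0.520% in gastrocnemius (0.359% to 0.727%) and 0.366% in vastus lateralis (0.310% to 0.373%). At E18.5 the medians were 0.270% (soleus), 0.365% (vastus intermedius), 0.268% (gastrocnemius) and 0.356% (vastus lateralis). The adult slow-biased libraries thus all stood above the others in this share, the adult fast-biased muscles held less, and the E18.5 libraries ran from 0.209% to 0.449%. By mean CPM, 21 of the 36 genes were highest in adult vastus intermedius and 9 in adult soleus, and 23 were lowest in E18.5 gastrocnemius.

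**Figure D1:**
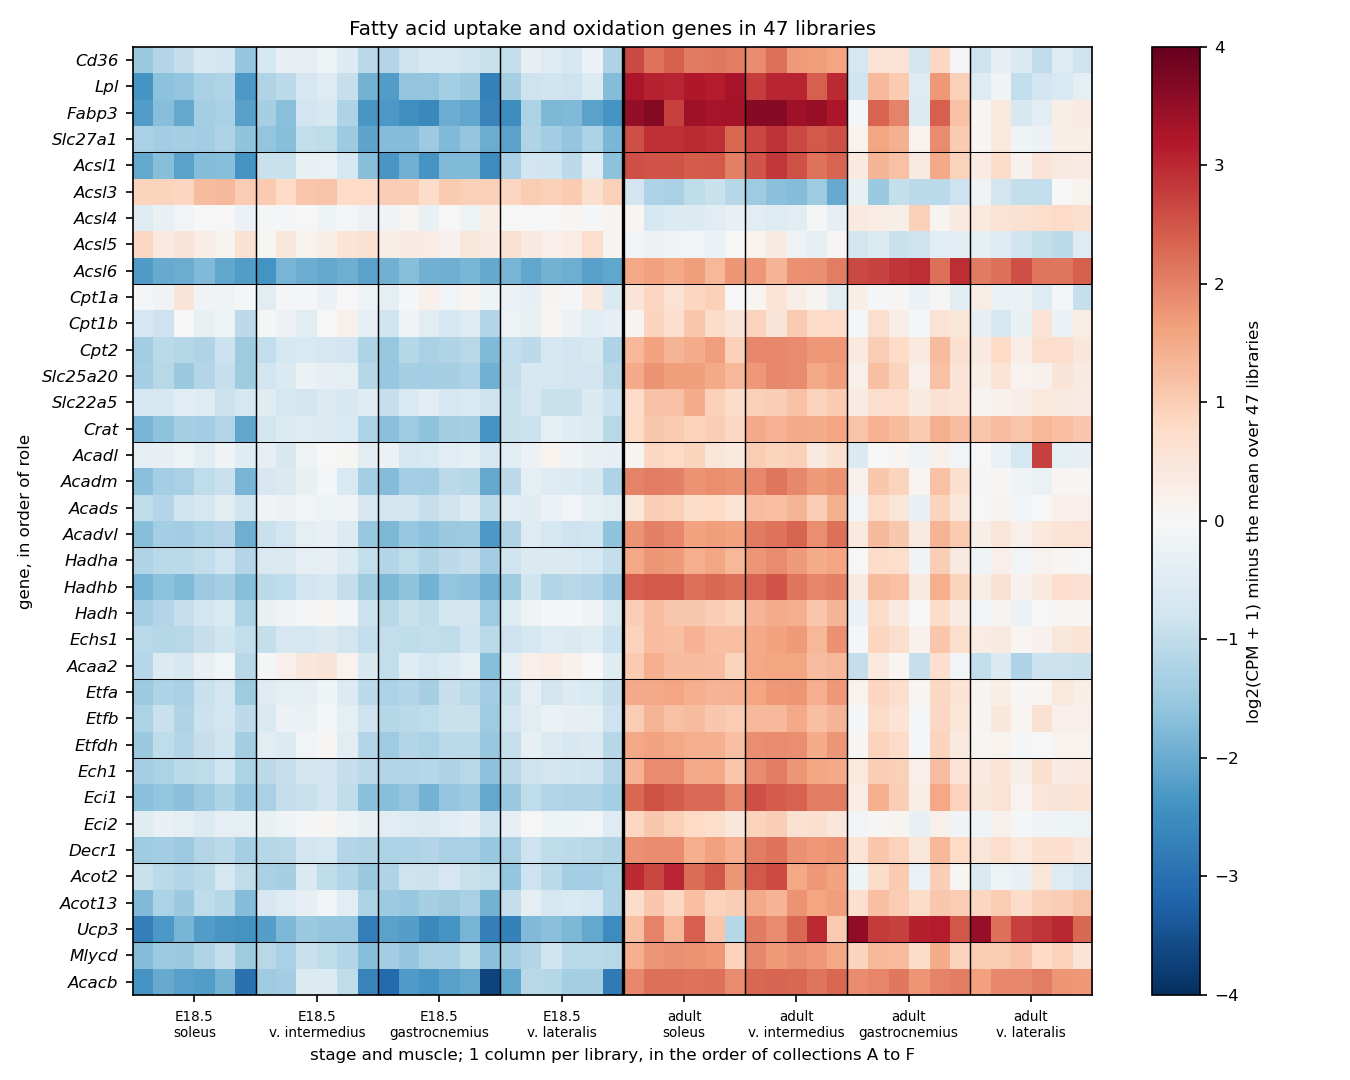
Heat map of the 36 genes (rows, in order of role) in the 47 libraries (columns, by stage and muscle), coloured by log2 CPM centred on each gene's mean. Adult soleus and vastus intermedius carry the highest values for most genes, and Acsl3 and Acsl5 run the other way between stages.

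The first comparison asked which of the genes differed between slow-biased and fast-biased adult muscle. Over the average of the shank pair and the thigh pair, 30 of the 36 genes were higher in the slow-biased muscle and 4 were lower (edgeR quasi-likelihood test, Benjamini-Hochberg adjusted p under 0.05), where 66% of all 14304 genes tested passed, 35.9% higher and 30.1% lower. The median log2 fold change of the 36 was 1.02, against 0.08 for all genes. All 4 uptake genes, all 5 genes of the hydratase to thiolase steps, all 3 of the electron transfer flavoprotein and all 4 auxiliary enzymes for unsaturated fatty acids were among the 30. The 4 lower genes were the synthetases Acsl3, Acsl4 and Acsl6 and the mitochondrial carrier Ucp3. Crat and Acadl did not pass, at 0.03 ± 0.06 and 0.69 ± 0.51 (log2 fold change ± standard error, as throughout). With the collection as a block, which compares the muscles within an animal, Acadl passed (1.11, adjusted p = 0.0464).

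In the shank, soleus against gastrocnemius gave 27 higher and 4 lower genes (53.5% of all genes called, 27.7% higher and 25.9% lower), with a median of 0.83. In the thigh, vastus intermedius against vastus lateralis gave 30 higher and 3 lower genes (52.2% of all genes called, 27.9% higher and 24.3% lower), with a median of 1.34, and with the block Cpt1a passed as well (0.45, adjusted p = 0.0112). With library totals alone, the slow-biased against fast-biased count was 32 higher and 4 lower, while the median of all genes moved from 0.08 to 0.41 and the share of all calls that were higher from 54.4% to 80.9%. The 36 genes' median was then 1.36. With the left-out library put back under its label, the calls of Acsl3, Acot13 and Acacb were lost.

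Other cell types' markers moved with these differences. All 9 endothelial and all 8 macrophage and leukocyte markers tested were higher in the slow-biased muscles, with endothelial sums of 403 to 577 TPM against 129 to 341 TPM in the fast-biased libraries and macrophage sums of 138 to 323 TPM against 44.9 to 155 TPM. Of 9 adipocyte markers 3 were higher and none was lower, with sums of 712 to 2295 TPM against 324 to 1037 TPM (Fabp4 and Lipe in this list and Gpihbp1 among the endothelial markers also handle fatty acids), and of 6 fibroblast markers 3 were higher and none was lower (6 with totals alone). Of 3 brown adipocyte markers, Cidea (4.02) and Elovl3 (1.58) were higher and Ucp1 was not tested, with sums of 4.1 to 320 TPM against 0.117 to 6.04 TPM. Of 6 cardiac markers, Myl4, Tnni3 and Ryr2 were higher (median 1.77), with sums of 11.8 to 32.2 TPM against 2.08 to 17.6 TPM, while Nppa, Nppb and Myl7 stayed at or below 0.974 TPM in the adults and were not tested. Of 13 skeletal fibre markers 6 were higher and 6 lower. Their part in the differences was not tested. Without the vastus intermedius library of collection C, which held the Ucp1 signal, the counts were again 30 higher and 4 lower.

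Uptake showed the widest adult differences, with a median log2 fold change of 2.47 over its 4 genes. Lpl was at 2758 to 3239 CPM (median 2984) in the adult soleus libraries and at 2258, 2707, 2712, 1741 and 2635 CPM in the 5 of vastus intermedius. In gastrocnemius Lpl was at 191 to 1101 CPM (median 658), and in vastus lateralis at 166 to 296 CPM (median 223). Lpl (Entrez 16956, chr8:68880555-68906932), the lipoprotein lipase, was thus higher in every slow-biased library than in any fast-biased one, and gastrocnemius spread widely, with collections A and D lowest. The averaged difference of Lpl was 2.88 ± 0.21 (adjusted p = 3.25e-11), with 2.32 ± 0.29 in the shank and 3.44 ± 0.31 in the thigh. Fabp3 was at 759 to 1461 CPM (median 1161) in the adult soleus libraries and at 1420.0, 1431, 1184, 1279 and 1066 CPM in the 5 of vastus intermedius. In gastrocnemius Fabp3 was at 76.5 to 597 CPM (median 351), and in vastus lateralis at 72.3 to 149.8 CPM (median 128). Fabp3 (Entrez 14077, chr4:130308738-130315463), the cytosolic fatty acid binding protein of heart and muscle, again separated each slow-biased muscle from its neighbour, by 1.79 ± 0.35 in the shank and 3.48 ± 0.38 in the thigh. Cd36, the membrane fatty acid translocase, averaged 2.32 ± 0.16 (adjusted p = 9.36e-12). The transport protein gene Slc27a1 averaged 2.12 ± 0.17 (adjusted p = 9.52e-11). For both of these genes too, no slow-biased library overlapped its fast-biased neighbours.

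**Figure D2:**
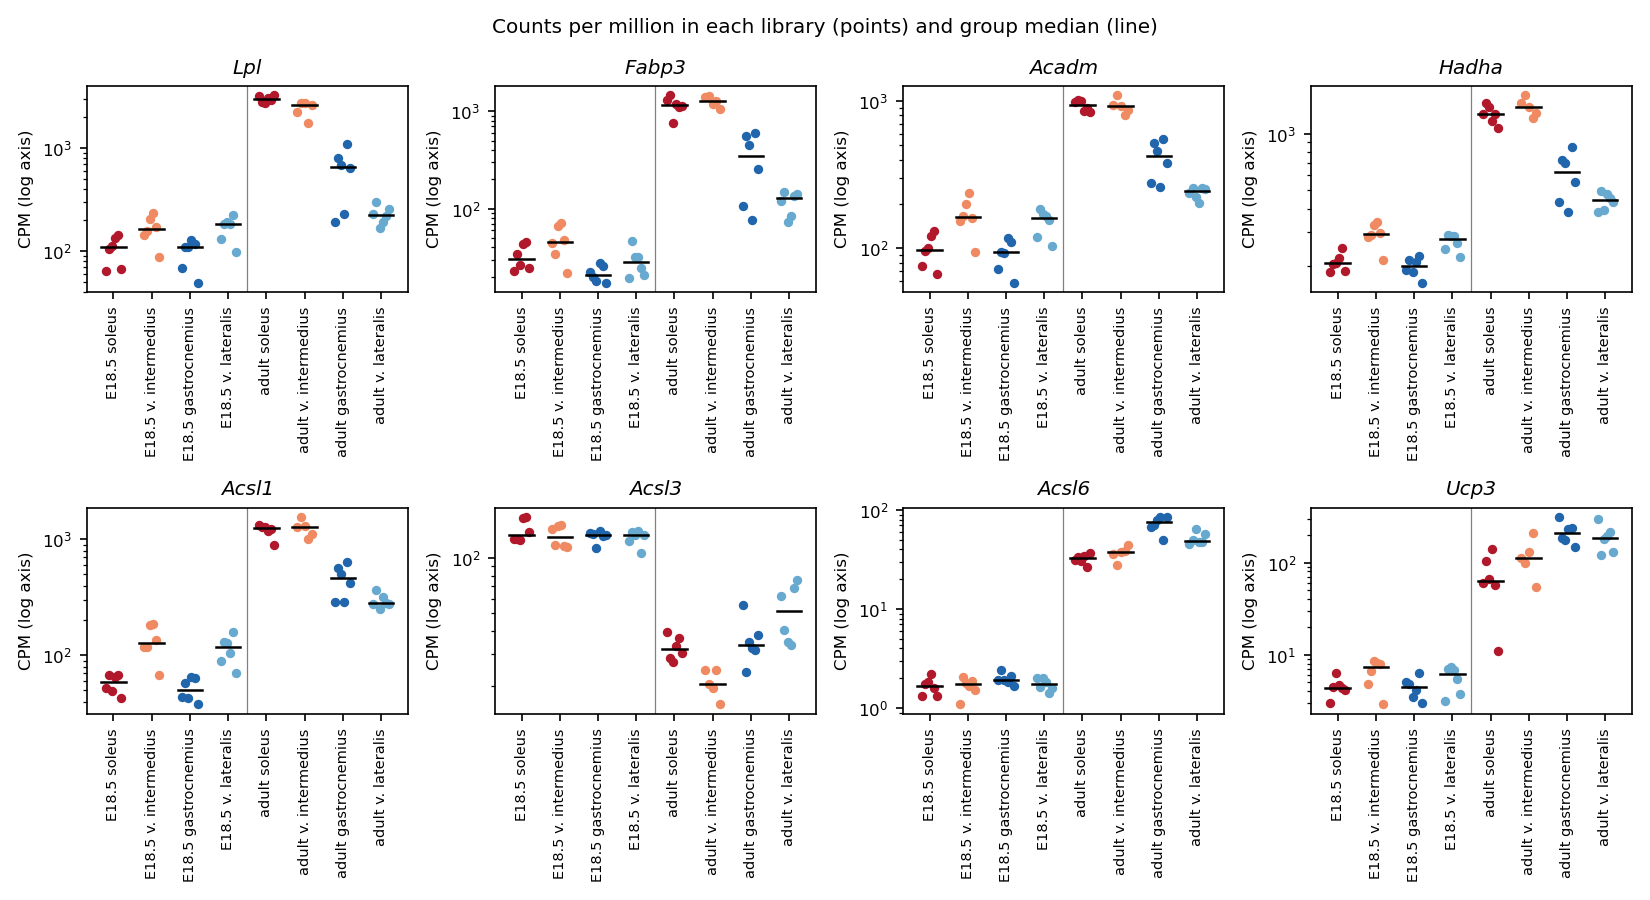
CPM of 8 of the genes in every library (points, log axis) with the group median (line), E18.5 muscles left and adult muscles right of the grey line. Lpl, Fabp3, Acadm, Hadha and Acsl1 are highest in adult soleus and vastus intermedius, Acsl6 and Ucp3 are highest by median in adult gastrocnemius, and Acsl3 is lower in every adult group than at E18.5.

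Among the 5 long-chain acyl-CoA synthetases, which activate fatty acids at different membranes, 2 were higher and 3 lower in slow-biased muscle. Acsl1 was at 899 to 1341 CPM (median 1247) in the adult soleus libraries and at 1271, 1563, 1313, 1010.2 and 1109 CPM in the 5 of vastus intermedius. In gastrocnemius Acsl1 was at 286 to 639 CPM (median 462), and in vastus lateralis at 252 to 369 CPM (median 282). Acsl1 (Entrez 14081, chr8:46471037-46536051), the main synthetase of oxidative tissues, did not overlap between the slow-biased and the fast-biased muscle of either pair, and averaged 1.77 ± 0.12 (adjusted p = 1.35e-11). Acsl5, linked to the mitochondrial outer membrane and the endoplasmic reticulum, averaged 0.67 ± 0.10. Acsl6 was at 26.7 to 36.6 CPM (median 32.4) in the adult soleus libraries and at 36, 27.5, 37.9, 38.7 and 44.7 CPM in the 5 of vastus intermedius. In gastrocnemius Acsl6 was at 49.6 to 85.2 CPM (median 74.9), and in vastus lateralis at 45.6 to 64.8 CPM (median 48.9). Acsl6 (Entrez 216739, chr11:54303805-54364756), a synthetase best known from brain, ran the opposite way: every slow-biased library was below every library of its fast-biased neighbour, and the averaged difference was -0.81 ± 0.09 (adjusted p = 2.59e-08). Its thigh difference of -0.47 was -0.32 and did not pass without collection C (adjusted p = 0.0565). Acsl4, which prefers arachidonate, averaged -0.89 ± 0.09, with -0.81 in the shank and -0.96 in the thigh. Acsl3 was at 27.2 to 39.4 CPM (median 32) in the adult soleus libraries and at 24.6, 20.7, 19.6, 24.7 and 16 CPM in the 5 of vastus intermedius. In gastrocnemius Acsl3 was at 23.9 to 55.7 CPM (median 33.6), and in vastus lateralis at 33.7 to 75.6 CPM (median 51.3). Acsl3 (Entrez 74205, chr1:78657825-78707743), a synthetase of lipid droplets and the endoplasmic reticulum, overlapped between soleus and gastrocnemius (-0.12 ± 0.20, not passing) but was lower in every vastus intermedius library than in any of vastus lateralis (-1.29 ± 0.21, adjusted p = 2.1e-05). The left-out library held 117 CPM of Acsl3 and 1.39 CPM of Acsl6.

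Acsl6 was the only one of 30 genes with a RefSeq promoter (250 bases before to 50 after the gene start, GRCm38.p6, of the 36) that held the letters TNAAGGTCA on either strand, the element of oestrogen-related receptors. Of all 18458 genes with a promoter, 1.22% held them in at least 1, as a gene with several starts has a promoter for each. The stretch around the match is shown because Acsl6 ran against most of the 36 genes in adult muscle and was the synthetase with the widest stage difference. It is plus strand RefSeq sequence at chr11:54303617-54303705, upstream of the gene, with the match, which reads the element on the opposite strand, in capitals at -167 from the transcript start at base 54303824, 1 of 3 starts listed for Acsl6.
Acsl6 promoter: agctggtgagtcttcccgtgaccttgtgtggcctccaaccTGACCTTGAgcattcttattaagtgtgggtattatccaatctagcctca
The direct repeat of AGGTCA with 1 base between, the element of peroxisome proliferator-activated receptors, was on either strand in none of the 30 and in 0.065% of all genes with a promoter. A match or its absence describes these windows alone.

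Of the 6 genes of the carnitine shuttle, 5 were higher in the slow-biased muscles and Crat did not pass on average. Slc25a20 was at 101 to 141 CPM (median 124) in the adult soleus libraries and at 137, 157, 153, 118 and 130.5 CPM in the 5 of vastus intermedius. In gastrocnemius Slc25a20 was at 46.3 to 94.5 CPM (median 66.9), and in vastus lateralis at 44.1 to 59.7 CPM (median 49.9). Slc25a20 (Entrez 57279, chr9:108662136-108684642), the carnitine-acylcarnitine translocase, was higher in each slow-biased muscle with no overlap, by 1.17 ± 0.11 on average (adjusted p = 2.05e-09). Cpt2 was at 103 to 168 CPM (median 141) in the adult soleus libraries and at 198, 199, 194, 176 and 175 CPM in the 5 of vastus intermedius. In gastrocnemius Cpt2 was at 68.4 to 126 CPM (median 87.1), and in vastus lateralis at 62.7 to 91.1 CPM (median 78.8). Cpt2 (Entrez 12896, chr4:107903982-107923589), the inner membrane palmitoyltransferase, overlapped in the shank (0.67 ± 0.14, adjusted p = 0.000287) and not in the thigh (1.31 ± 0.15, adjusted p = 9.57e-08). Crat was at 698 to 844 CPM (median 769) in the adult soleus libraries and at 1146, 1037, 1146, 1109 and 1184 CPM in the 5 of vastus intermedius. In gastrocnemius Crat was at 819.8 to 1083 CPM (median 940.0), and in vastus lateralis at 845 to 990.4 CPM (median 887). Crat (Entrez 12908, chr2:30400476-30416017), the carnitine acetyltransferase that buffers acetyl-CoA, was -0.29 ± 0.08 in the shank (adjusted p = 0.0045) and 0.35 ± 0.08 in the thigh (adjusted p = 0.00135), that is lower in soleus than in gastrocnemius with overlapping values and higher in vastus intermedius than in vastus lateralis without overlap. Scaled by totals alone, the shank value of Crat was 0.09. The carnitine transporter Slc22a5 averaged 0.70 ± 0.09, the outer membrane enzyme Cpt1a 0.59 ± 0.14 and its muscle form Cpt1b 0.89 ± 0.21.

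Of the 4 acyl-CoA dehydrogenases, which take the first step of each round at different chain lengths, 3 were higher and Acadl did not pass. Acadm was at 846 to 1008 CPM (median 932) in the adult soleus libraries and at 941, 1089, 929.9, 798 and 862 CPM in the 5 of vastus intermedius. In gastrocnemius Acadm was at 259.9 to 555 CPM (median 421), and in vastus lateralis at 202 to 258 CPM (median 244). Acadm (Entrez 11364, chr3:153922353-153944643), the medium-chain enzyme, was higher in all slow-biased libraries than in any fast-biased one, and gastrocnemius also stood above vastus lateralis without overlap. Its averaged difference was 1.60 ± 0.11 (adjusted p = 5.86e-12). Acadvl was at 611 to 809.5 CPM (median 669) in the adult soleus libraries and at 858, 916, 1009, 728 and 926 CPM in the 5 of vastus intermedius. In gastrocnemius Acadvl was at 256 to 521 CPM (median 422), and in vastus lateralis at 230.4 to 304 CPM (median 276). Acadvl (Entrez 11370, chr11:70010183-70015428), the very-long-chain enzyme of the inner membrane, did not overlap in either pair and averaged 1.29 ± 0.11 (adjusted p = 2.71e-10). Acads, the short-chain enzyme, was 1.21 ± 0.16 in the thigh (adjusted p = 1.19e-06) and 0.36 ± 0.15 in the shank (adjusted p = 0.0497), where the call was lost without collection A, B, C, D or F.

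Hadha and Hadhb encode the 2 subunits of the mitochondrial trifunctional protein, which carries the hydratase, dehydrogenase and thiolase activities for long chains. Their genes lie head to head on mouse chromosome 5 (GRCm38.p6, Hadha at chr5:30119423-30154980 on the minus strand, Hadhb at chr5:30155253-30184593 on the plus strand), with 272 bases between their starts. The 250 bases before Hadhb are shown because the stretch lies between the starts of both genes, which were called in the same direction in the adult pairs. It is plus strand RefSeq sequence at chr5:30155003-30155252, between the genes, and the capitals mark the GGGCGG boxes, at -90 and -25 from the Hadhb start.
Hadhb upstream: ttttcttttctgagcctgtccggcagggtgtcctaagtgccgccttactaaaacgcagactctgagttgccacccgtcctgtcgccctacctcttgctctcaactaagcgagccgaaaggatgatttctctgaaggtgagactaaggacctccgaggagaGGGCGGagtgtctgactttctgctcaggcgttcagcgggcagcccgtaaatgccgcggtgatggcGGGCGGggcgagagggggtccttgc
GGGCGG on either strand was in promoters of 21 of the 30 genes and of 48.7% of all genes with one, CCAAT in 15 of the 30 and in 42.2% of all, and TATAAA in Acacb alone among the 30 and in 14.5% of all.

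Hadhb was at 942 to 1135 CPM (median 1053) in the adult soleus libraries and at 1036, 1191, 915, 799 and 837 CPM in the 5 of vastus intermedius. In gastrocnemius Hadhb was at 262 to 565 CPM (median 425), and in vastus lateralis at 235 to 325 CPM (median 289.9). Hadhb (Entrez 231086) was higher in each slow-biased muscle without overlap, by 1.59 ± 0.12 on average (adjusted p = 2.94e-11), beside 1.39 ± 0.11 for Hadha. Acaa2 was at 330.1 to 497 CPM (median 429) in the adult soleus libraries and at 523, 541, 536, 425 and 454 CPM in the 5 of vastus intermedius. In gastrocnemius Acaa2 was at 91.7 to 287 CPM (median 178), and in vastus lateralis at 75 to 119.7 CPM (median 97.2). Acaa2, the medium-chain 3-ketoacyl-CoA thiolase, gave the widest averaged difference of the 5 genes of these steps, at 1.82 ± 0.15 (adjusted p = 1.93e-10), with no overlap in either pair. The short-chain hydratase Echs1 averaged 0.96 ± 0.10 and the hydroxyacyl-CoA dehydrogenase Hadh 1.05 ± 0.09, and both passed in each pair.

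All 3 genes of electron transfer were higher in the slow-biased muscles. Etfdh was at 312 to 414 CPM (median 381) in the adult soleus libraries and at 484, 499, 489.7, 381 and 453 CPM in the 5 of vastus intermedius. In gastrocnemius Etfdh was at 130.4 to 254 CPM (median 204), and in vastus lateralis at 127 to 149 CPM (median 145). Etfdh (Entrez 66841, chr3:79603788-79628767), the ubiquinone oxidoreductase that takes the electrons on, did not overlap in either pair and averaged 1.34 ± 0.10 (adjusted p = 3.35e-11). Etfa was at 378 to 436 CPM (median 407) in the adult soleus libraries and at 442, 493, 499.9, 403 and 487 CPM in the 5 of vastus intermedius. In gastrocnemius Etfa was at 151 to 266 CPM (median 225), and in vastus lateralis at 152 to 196 CPM (median 165). Etfa (Entrez 110842, chr9:55454436-55512243), the alpha subunit of the flavoprotein, averaged 1.22 ± 0.08 (adjusted p = 1.09e-11), again without overlap, and the beta subunit gene Etfb 0.90 ± 0.10. Etfdh was the only one of the 30 genes whose promoter held the palindrome of nuclear respiratory factor 1 shown in capitals here, which 1.42% of all genes with a promoter held on either strand. Its stretch is shown as the single match among these mitochondrial genes, on the gene's own minus strand at chr3:79628846-79628935 (GRCm38.p6), upstream of the gene, with the match at -128 in capitals.
Etfdh promoter: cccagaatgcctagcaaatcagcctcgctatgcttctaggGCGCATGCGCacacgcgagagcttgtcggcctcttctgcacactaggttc

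The 4 auxiliary enzymes, which move or reduce the double bonds of unsaturated fatty acids, were all higher. Eci1 was at 219 to 334 CPM (median 280.5) in the adult soleus libraries and at 348, 311, 299, 239 and 241 CPM in the 5 of vastus intermedius. In gastrocnemius Eci1 was at 69.4 to 167 CPM (median 110.4), and in vastus lateralis at 63.2 to 85.6 CPM (median 81.2). Eci1 (Entrez 13177, chr17:24426683-24439316), an enoyl-CoA isomerase, averaged 1.62 ± 0.13 (adjusted p = 9.71e-11) with no overlap in either pair. The isomerase Ech1 averaged 1.11 ± 0.11, the dienoyl-CoA reductase Decr1 1.12 ± 0.10 and Eci2 0.87 ± 0.08.

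The thioesterases, which release the free acid from acyl-CoA, and Ucp3 moved apart. Acot2 was at 48 to 119 CPM (median 86) in the adult soleus libraries and at 78.4, 86.9, 41.4, 46.9 and 43.1 CPM in the 5 of vastus intermedius. In gastrocnemius Acot2 was at 11 to 29.2 CPM (median 18.9), and in vastus lateralis at 7.67 to 19.4 CPM (median 10.01). Acot2 (Entrez 171210, chr12:83987861-83993877), a mitochondrial thioesterase, was higher in each slow-biased muscle without overlap, by 2.31 ± 0.21 on average (adjusted p = 9.04e-10). Acot13 was at 67.6 to 94 CPM (median 79.2) in the adult soleus libraries and at 117, 106, 144, 123 and 132 CPM in the 5 of vastus intermedius. In gastrocnemius Acot13 was at 64 to 94.1 CPM (median 81.7), and in vastus lateralis at 67.2 to 89.1 CPM (median 79.8). Acot13 (Entrez 66834, chr13:24817955-24831489), a thioesterase found with mitochondria, was higher in vastus intermedius than in vastus lateralis without overlap (0.68 ± 0.10, adjusted p = 7.45e-06), while soleus and gastrocnemius overlapped (0.04 ± 0.10, not passing). Ucp3 was at 11 to 139 CPM (median 63.1) in the adult soleus libraries and at 112, 98.3, 131, 208 and 53.7 CPM in the 5 of vastus intermedius. In gastrocnemius Ucp3 was at 148 to 313 CPM (median 208), and in vastus lateralis at 122 to 296 CPM (median 186). Ucp3 (Entrez 22229, chr7:100472991-100486432), a carrier of the muscle mitochondrial inner membrane whose transport role is debated, was lower in every soleus library than in any of gastrocnemius (-1.53 ± 0.38, adjusted p = 0.00146). In the thigh its values overlapped and the difference of -0.62 ± 0.39 did not pass.

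Both genes of malonyl-CoA control were higher on average. Mlycd was at 79.6 to 152 CPM (median 142) in the adult soleus libraries and at 162, 139.6, 153, 141 and 124 CPM in the 5 of vastus intermedius. In gastrocnemius Mlycd was at 70.2 to 118 CPM (median 90.8), and in vastus lateralis at 61.1 to 93.7 CPM (median 82.1). Mlycd (Entrez 56690, chr8:119394852-119421838), the decarboxylase that removes malonyl-CoA, overlapped in the shank and not in the thigh, and averaged 0.70 ± 0.10 (adjusted p = 2.67e-06). Acacb was at 698 to 874 CPM (median 855) in the adult soleus libraries and at 928, 949, 921, 835 and 929.7 CPM in the 5 of vastus intermedius. In gastrocnemius Acacb was at 637 to 808 CPM (median 735), and in vastus lateralis at 579.7 to 777 CPM (median 674). Acacb (Entrez 100705, chr5:114146321-114250761), the acetyl-CoA carboxylase that makes malonyl-CoA at the mitochondrial surface, overlapped in the shank (0.18 ± 0.09, not passing) and not in the thigh (0.46 ± 0.09, adjusted p = 0.000179).

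**Figure D3:**
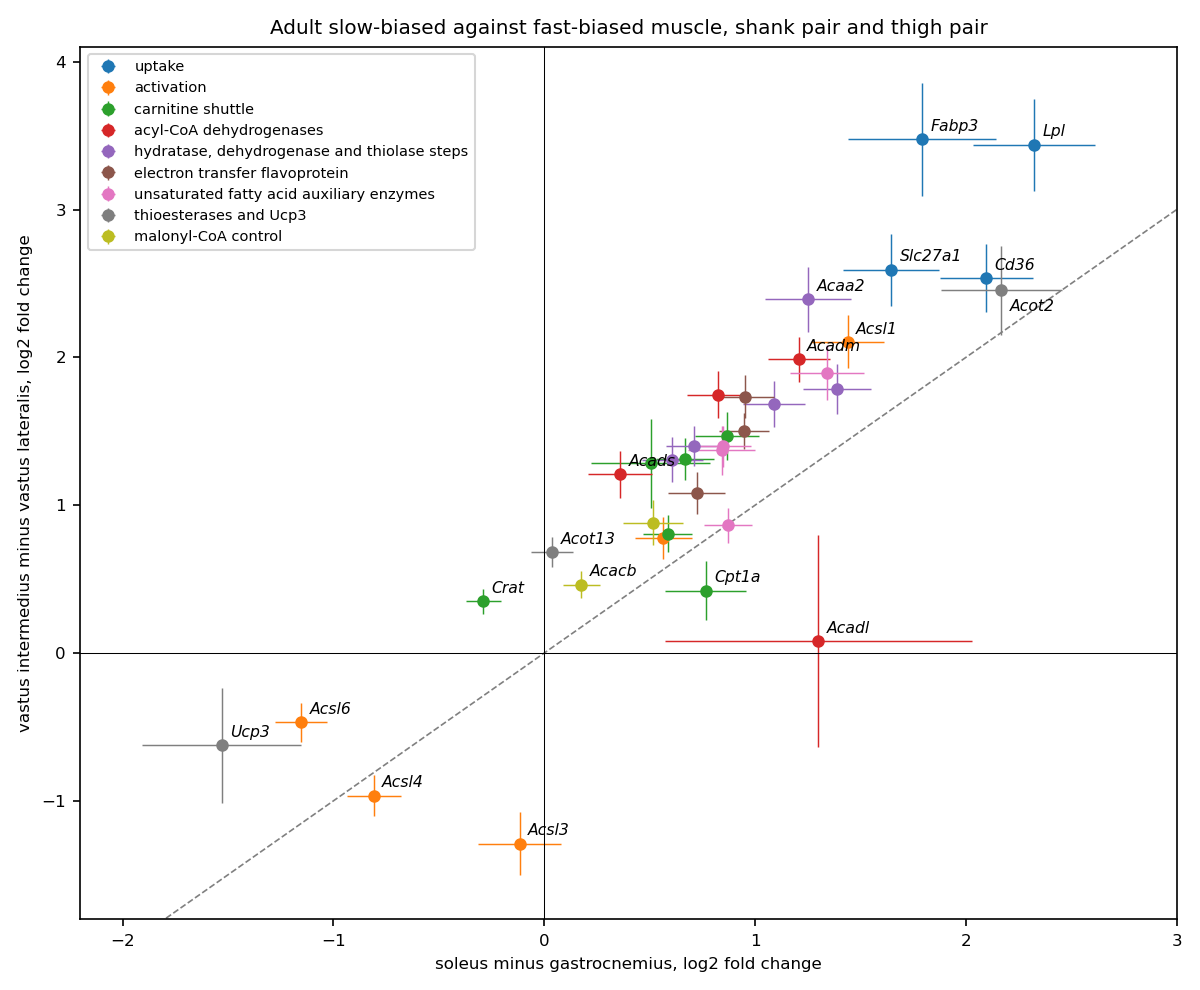
Log2 fold change of the 36 genes between slow-biased and fast-biased adult muscle in the shank (x axis) and the thigh (y axis), coloured by role, with standard errors as bars and the dashed line where both are equal. More genes lie above the line than below it, and Ucp3, Acsl3, Acsl4 and Acsl6 lie below 0 on both axes.

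Overlap was not counted over all genes, of which 53.5% were called in the shank pair and 52.2% in the thigh pair. The following counts therefore do not show whether the 36 genes were set apart from other genes. Across the 36 genes, soleus lay wholly above gastrocnemius for 21, wholly below for 3, and overlapped it for 12. Vastus intermedius lay wholly above vastus lateralis for 28, wholly below for 3, and overlapped for Acsl5, Cpt1a, Cpt1b, Acadl and Ucp3. Gastrocnemius itself was spread, as collections A and D held its 2 lowest values for 29 of the 36 genes, as they did for 12.3% of 13469 genes with a mean over 1 CPM. In those libraries the slow myosin gene Myh7 was at 28 and 15.1 CPM, against 715 to 1452 CPM in the other 4, and the fast oxidative myosin gene Myh2 at 739 and 1022 CPM against 3795 to 7055 CPM. Their part in the spread was not tested. In adult soleus, collection F held the lowest value for 21 of the 36 genes and for 12.7% of the 13469 genes.

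The difference between slow-biased and fast-biased muscle was itself compared between the shank and the thigh. The slow-biased minus fast-biased value was lower in the shank than in the thigh for 13 of the 36 genes and higher for 1 (8.1% of all genes called, 1.94% higher and 6.16% lower), with a median of -0.60 for the 36 and -0.03 for all genes. The gene with the positive value was Acsl3, at 1.17 ± 0.29 (adjusted p = 0.0114), a gene called in the thigh pair and not in the shank pair. Fabp3 gave -1.68 ± 0.50 (adjusted p = 0.0361), Acaa2 -1.14 ± 0.29 (adjusted p = 0.0155) and Acadvl -0.92 ± 0.21 (adjusted p = 0.00732). Acads at -0.85, Acadm and Etfdh both at -0.78, Echs1 at -0.70, Hadh at -0.69 and Etfa at -0.55 completed the matrix steps, with Acsl6 at -0.68, Acot13 at -0.65, and Cpt2 and Crat both at -0.64. None of the auxiliary or malonyl-CoA genes passed, but with the block Decr1 (-0.58, adjusted p = 0.0411) and Slc25a20 (-0.64, adjusted p = 0.0418) did. Of 13 skeletal fibre markers 1 was higher and 7 lower in the same contrast, and their part was not tested. This count rested on single libraries: it was 0 with the left-out library put back (2 at an unadjusted p under 0.05), 5 with library totals alone, and 3 to 15 when 1 adult collection was left out, with 9 without B, 5 without C, 6 without E and 3 without F.

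Within the adult slow-biased muscles, soleus and vastus intermedius overlapped for 31 of the 36 genes. Soleus lay wholly above for Lpl and Acsl3 and wholly below for Cpt2, Crat and Acot13. Of these Lpl was not called, while Acads was called with overlapping values. As for the pairs, overlap was not counted over all genes, here or between the fast-biased muscles. Soleus was called higher for Acsl3 (0.62 ± 0.21) and lower for Acot13 (-0.65 ± 0.10), Crat (-0.56 ± 0.08), Acads (-0.50 ± 0.16) and Cpt2 (-0.43 ± 0.14), 1 and 4 genes where 17.2% of all genes were called (5.61% higher and 11.6% lower). With the left-out library put back none passed (2 at an unadjusted p under 0.05), and it was 3 with no filter, 10 in a fit of those groups alone, 2 without collection A or D and 3 without F. With the block Cpt1a (0.51, adjusted p = 0.0136) and Echs1 (-0.44, adjusted p = 0.0395) passed too. Within the fast-biased muscles, vastus lateralis was lower than gastrocnemius for 10 genes and higher for none (5.64% of all genes called, 2.12% higher and 3.52% lower). Those 10 held all 4 uptake genes, from -1.54 for Fabp3 and -1.41 for Lpl to -1.07 for Slc27a1 and -0.86 for Cd36, with Acaa2 (-0.88), Acadm (-0.77), Acsl1 (-0.59), Acadvl (-0.55), Acsl6 (-0.47) and Etfdh (-0.47). Gastrocnemius and vastus lateralis still overlapped for 35 of the 36 genes, Acadm being the exception, and the count was 0 with the left-out library (6 at an unadjusted p under 0.05), 6 with limma-voom, 4 in a fit of those groups alone, 4 without collection C or E and 5 without B or F. With the block Acsl3 passed (0.55, adjusted p = 0.0412) and the call of Etfdh was lost (-0.44, adjusted p = 0.0558). These comparisons share libraries with the pair comparisons above.

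The second comparison set each adult muscle against the same muscle at E18.5. With TMM scaling, 33 of the 36 genes were higher and 2 lower in adult soleus (74.7% of all 16402 genes called, 35.7% higher and 39% lower), and 33 and 2 in gastrocnemius (78.5% called, 37% higher and 41.5% lower). In vastus intermedius 32 were higher and 2 lower (73.1% called, 34.5% higher and 38.5% lower), and in vastus lateralis 27 were higher and 3 lower (78.1% called, 35.2% higher and 42.8% lower). The median log2 fold change of the 36 was 2.65 (soleus), 2.36 (vastus intermedius), 1.95 (gastrocnemius) and 1.15 (vastus lateralis), against -0.07, -0.08, -0.12 and -0.20 for all genes. Acsl3 and Acsl5 were lower in all 4 adult muscles, and Acaa2 was lower in adult vastus lateralis while it was higher in the other muscles (in gastrocnemius with TMM only). Averaged over the muscles, a comparison added after the values were seen, 34 genes were higher and 2 lower (87.7% of all genes called, 40.7% higher and 47% lower). That average took the 4 libraries of an animal as independent and was not fitted with the block. Its standard errors and calls may therefore overstate the precision.

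The count depended on the scaling in the fast-biased muscles. With library totals alone, soleus gave 32 higher and 3 lower genes, vastus intermedius 30 and 3, gastrocnemius 23 and 5, and vastus lateralis 12 and 14. The median of all genes was then -0.78 (soleus), -0.83 (vastus intermedius), -1.26 (gastrocnemius) and -1.27 (vastus lateralis), and the share of all calls that were higher fell from 47.8% to 23.2%, from 47.3% to 21.5%, from 47.1% to 17.9% and from 45.1% to 16.2%. The 36 genes' medians were 1.96, 1.63, 0.82 and 0.06 in the same order. Their distance above the median of all genes stayed about as with TMM. A change of scaling factors moves all genes nearly alike, so that distance cannot test the scaling. In vastus lateralis the 12 genes that were higher under both scalings were Fabp3, Slc27a1, Acsl6, Cpt2, Crat, Hadhb, Eci1, Decr1, Acot13, Ucp3, Mlycd and Acacb. The genes that turned from higher to lower there and passed were Acsl4 (-0.44), Acadm (-0.38), Acads (-0.63), Hadha (-0.33) and Etfb (-0.29). Cd36, Lpl, Cpt1a, Cpt1b, Hadh and Eci2, which did not pass with TMM in vastus lateralis, were lower and passed with totals alone, while Acsl3, Acsl5 and Acaa2 were lower under both.

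**Figure D4:**
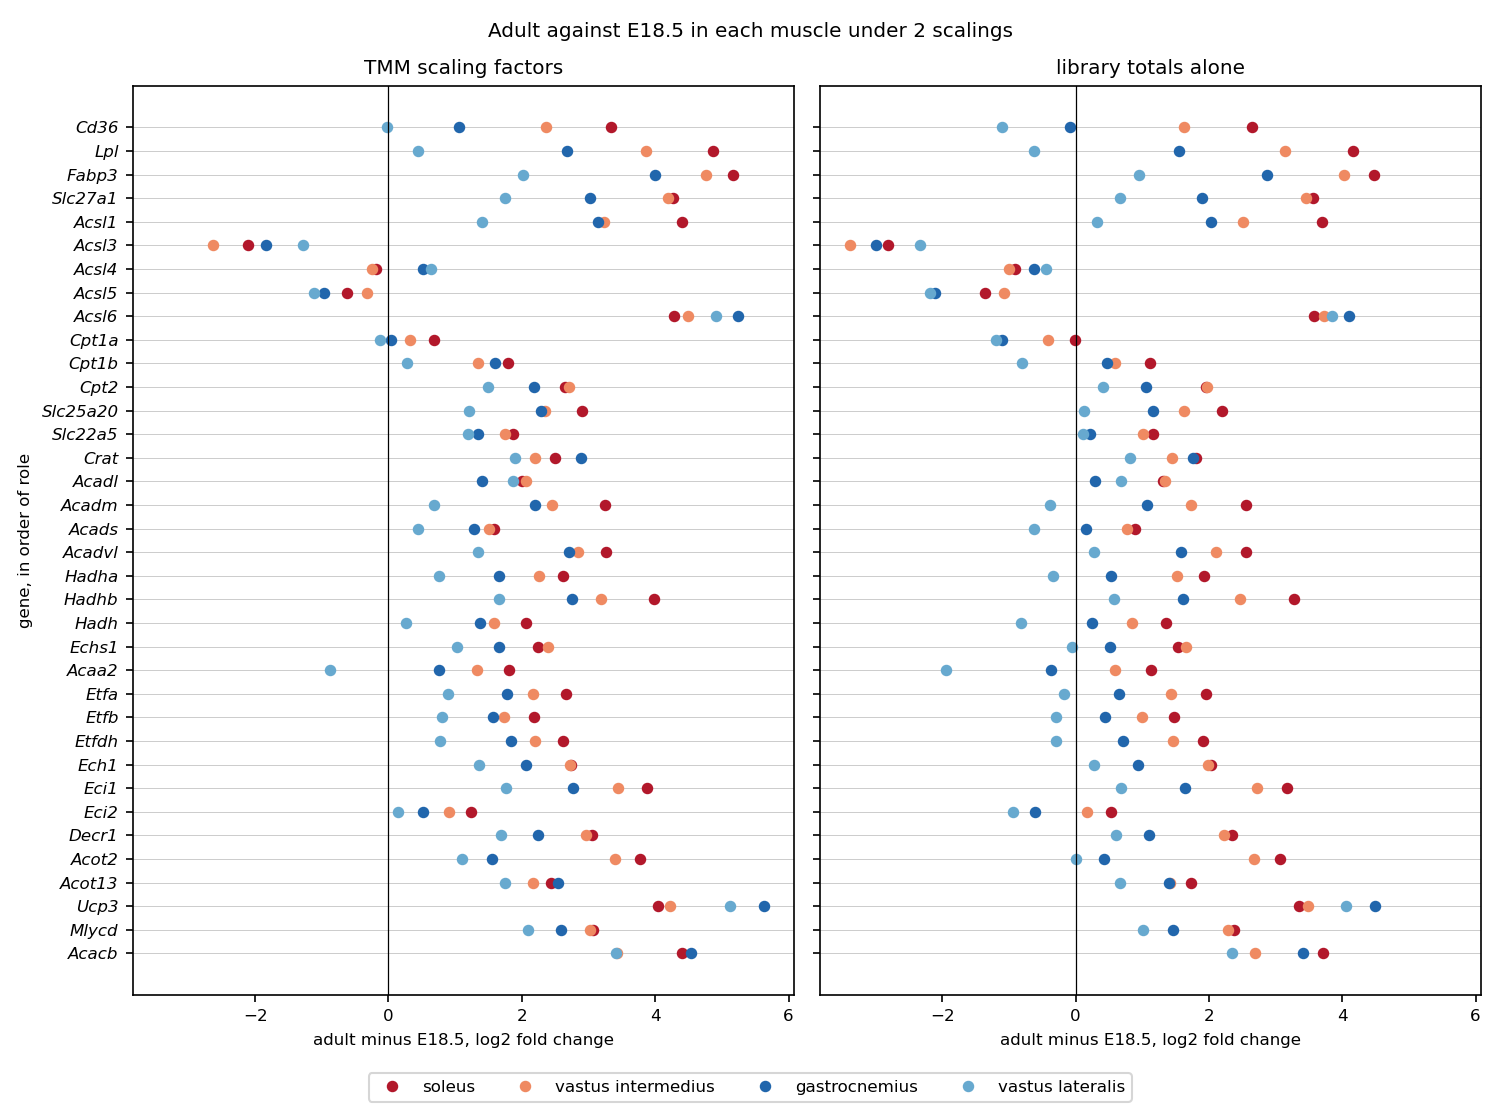
Log2 fold change of adult against E18.5 for the 36 genes in each of the 4 muscles, with TMM scaling (left) and with library totals alone (right). Soleus and vastus intermedius lie to the right for most genes under both scalings, and vastus lateralis straddles 0 with totals alone.

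Fabp3 had the widest stage difference of the uptake genes. In the shank at E18.5, Fabp3 was at 23.1 to 45 CPM (median 30.2) in soleus and 17.3 to 27.7 CPM (median 21) in gastrocnemius. In the thigh it was at 21.8 to 71.9 CPM (median 45.7) in vastus intermedius and 19.5 to 46.8 CPM (median 28.3) in vastus lateralis. Adult Fabp3, given above, lay above these values in every muscle without overlap, and the rise was 5.16 ± 0.37 (soleus), 4.76 ± 0.37 (vastus intermedius), 3.99 ± 0.35 (gastrocnemius) and 2.02 ± 0.32 (vastus lateralis). Lpl rose by 4.86, 3.86 and 2.67 in the same first 3 muscles and did not pass in vastus lateralis (0.45 ± 0.28, and -0.62 with totals alone). Slc27a1 rose in all 4 muscles, by 1.74 to 4.26. Cd36 rose by 3.34 in soleus, 2.36 in vastus intermedius and 1.05 in gastrocnemius, and was at -0.03 ± 0.20 in vastus lateralis. With totals alone its gastrocnemius value was -0.08 (adjusted p = 0.722).

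The synthetases differed in direction between the stages. E18.5 soleus held Acsl6 at 1.31 to 2.21 CPM (median 1.66) and gastrocnemius at 1.67 to 2.39 CPM (median 1.91). The E18.5 thigh muscles held it at 1.09 to 2.05 CPM (median 1.73) in vastus intermedius and 1.43 to 2.01 CPM (median 1.74) in vastus lateralis. Acsl6 was thus low at E18.5 in all muscles, and rose by 4.29 ± 0.15 (soleus), 4.48 ± 0.15 (vastus intermedius), 5.24 ± 0.15 (gastrocnemius) and 4.91 ± 0.15 (vastus lateralis). At E18.5 Acsl3 stood at 126 to 167 CPM (median 133) in soleus and at 114 to 141 CPM (median 134) in gastrocnemius. Of the thigh muscles, vastus intermedius had 115 to 150.5 CPM (median 130.4) and vastus lateralis 107 to 140.2 CPM (median 134). Acsl3 went the other way with no overlap, falling by 2.11 on the log2 scale (soleus), 2.64 (vastus intermedius), 1.84 (gastrocnemius) and 1.28 (vastus lateralis), and it was lower under both scalings in all 4. Acsl1 rose in all 4 muscles, by 4.40 in soleus and 1.40 in vastus lateralis at the extremes. Acsl5 fell by 0.33 to 1.11 on the log2 scale, with the smallest value in vastus intermedius, where the call was lost without adult collection D or E or E18.5 collection B, E or F. Acsl4 passed only in gastrocnemius (0.51) and vastus lateralis (0.64) of the muscles tested, both positive with TMM and negative (-0.63 and -0.44) with totals alone.

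In the shuttle, Crat had the highest average rise, at 2.37 ± 0.07. Embryonic Crat measured 93.7 to 177 CPM (median 141) in soleus and 77.2 to 158 CPM (median 138) in gastrocnemius, with 166 to 278 CPM (median 267) in vastus intermedius and 185 to 301 CPM (median 245) in vastus lateralis. All adult muscles lay above these values without overlap, and the rise was 2.89 ± 0.15 in gastrocnemius, 2.50 ± 0.14 in soleus, 2.19 ± 0.15 in vastus intermedius and 1.89 ± 0.14 in vastus lateralis. Cpt2 rose by 1.49 to 2.7, Slc25a20 by 1.20 to 2.91 and Slc22a5 by 1.20 to 1.87, each in all 4 muscles. Cpt1a passed in soleus alone of the 4 (0.69 ± 0.17), and with totals alone it was -0.01 there and -1.10 in gastrocnemius.

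Of the matrix enzymes, Acadvl and Hadhb had the widest rises in their steps. In the shank at E18.5, Acadvl was at 50.8 to 88.4 CPM (median 76.4) in soleus and 39.98 to 72.4 CPM (median 66.4) in gastrocnemius. In the thigh it was at 69.5 to 165 CPM (median 128) in vastus intermedius and 64.9 to 141 CPM (median 114) in vastus lateralis. Acadvl rose by 3.26 ± 0.19 (soleus), 2.84 ± 0.19 (vastus intermedius), 2.7 ± 0.19 (gastrocnemius) and 1.35 ± 0.18 (vastus lateralis), with no overlap in any. E18.5 soleus held Hadhb at 56.6 to 81 CPM (median 64.4) and gastrocnemius at 54.1 to 67.9 CPM (median 62.3). The E18.5 thigh muscles held it at 75.4 to 129 CPM (median 105) in vastus intermedius and 74.8 to 118 CPM (median 91.6) in vastus lateralis. Hadhb rose by 3.98 ± 0.16, 3.19 ± 0.16, 2.75 ± 0.15 and 1.66 ± 0.15 in the same order, also without overlap. Hadha, its partner, rose by 2.62, 2.26, 1.66 and 0.75, the last of which was -0.33 with totals alone. At E18.5 Acaa2 stood at 80.5 to 168 CPM (median 119) in soleus and at 55 to 137 CPM (median 116) in gastrocnemius. Of the thigh muscles, vastus intermedius had 114 to 259.5 CPM (median 203) and vastus lateralis 127 to 219 CPM (median 189.8). Acaa2 stood in adult vastus lateralis below every E18.5 library of that muscle (-0.87 ± 0.22, and -1.95 with totals alone), rose in soleus (1.81 ± 0.22) and vastus intermedius (1.32 ± 0.23) without overlap, and in gastrocnemius overlapped (0.76 ± 0.22, and -0.36 with totals alone). Acadm rose by 0.69 in vastus lateralis to 3.25 in soleus, Echs1 by 1.02 to 2.39, and Acads by 0.44 to 1.59. The vastus lateralis values of these genes were negative with totals alone, at -0.38, -0.05 and -0.63. Hadh rose by 1.38 to 2.06 in the other muscles and did not pass in vastus lateralis (0.26).

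The electron transfer genes rose in all 4 muscles with TMM scaling. Embryonic Etfa measured 53 to 85.3 CPM (median 59.9) in soleus and 55 to 77 CPM (median 62.6) in gastrocnemius, with 68.3 to 130.3 CPM (median 107) in vastus intermedius and 74.3 to 112 CPM (median 92.1) in vastus lateralis. Etfa rose by 2.66 ± 0.14, 2.17 ± 0.14, 1.78 ± 0.14 and 0.90 ± 0.13 in soleus, vastus intermedius, gastrocnemius and vastus lateralis, without overlap, and its vastus lateralis value was -0.18 with totals alone. Etfdh (0.77 to 2.61) and Etfb (0.80 to 2.18) had the same lowest and highest muscle, and their vastus lateralis values were -0.30 and -0.29 with totals alone. In the shank at E18.5, Eci1 was at 17.3 to 23.5 CPM (median 18.9) in soleus and 13.1 to 20.3 CPM (median 17.6) in gastrocnemius. In the thigh it was at 17.4 to 33.1 CPM (median 28.4) in vastus intermedius and 19.8 to 27.5 CPM (median 24.1) in vastus lateralis. Eci1 rose by 3.88 ± 0.17, 3.44 ± 0.17, 2.77 ± 0.17 and 1.76 ± 0.16 in the same order, and was higher under both scalings. Decr1 rose by 1.68 to 3.06, Ech1 by 1.36 to 2.73, and Eci2 by 0.52 to 1.24 outside vastus lateralis, where it did not pass. Eci2 was -0.61 in gastrocnemius with totals alone.

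Ucp3 had the highest rise averaged over the muscles, at 4.75 ± 0.19, beside 4.73 ± 0.07 for Acsl6 and 3.94 ± 0.14 for Acacb. E18.5 soleus held Ucp3 at 2.99 to 6.27 CPM (median 4.39) and gastrocnemius at 2.98 to 6.28 CPM (median 4.45). The E18.5 thigh muscles held it at 2.89 to 8.51 CPM (median 7.27) in vastus intermedius and 3.14 to 7.41 CPM (median 6.08) in vastus lateralis. Every adult Ucp3 value lay above them, soleus of collection F being the lowest adult library, and the rise was 5.62 ± 0.39 in gastrocnemius, 5.11 ± 0.38 in vastus lateralis, 4.23 ± 0.37 in vastus intermedius and 4.04 ± 0.37 in soleus. At E18.5 Acacb stood at 22.9 to 49.3 CPM (median 39.8) in soleus and at 13.4 to 44.2 CPM (median 37) in gastrocnemius. Of the thigh muscles, vastus intermedius had 28.9 to 127 CPM (median 81.1) and vastus lateralis 25.4 to 85.9 CPM (median 73.1). Adult Acacb lay above these in all muscles, and rose by 4.54 ± 0.28 in gastrocnemius, 4.40 ± 0.28 in soleus, 3.42 ± 0.27 in vastus lateralis and 3.42 ± 0.27 in vastus intermedius. With TMM these 3 genes had their largest rise in gastrocnemius, where Lpl, Fabp3 and Hadhb had it in soleus, and with totals alone that of Acacb was larger in soleus (3.71) than in gastrocnemius (3.41). All 3 were higher under both scalings in all 4 muscles. Mlycd rose by 2.09 to 3.07, Acot2 by 1.11 to 3.78 and Acot13 by 1.75 to 2.54. In the left-out library Ucp3 was at 7.50 CPM, Acacb at 93.3 CPM, Fabp3 at 41.7 CPM and Lpl at 182 CPM. Beside the rises, adipocyte markers were higher in the adult average (9 of 9), with 8 of 9 under totals alone. Their median sums were higher in adult than in E18.5 soleus (1339 against 576 TPM) and vastus intermedius (777 against 676 TPM). In gastrocnemius (540 against 703 TPM) and vastus lateralis (575 against 716 TPM) the adult sums were lower. Of 13 skeletal fibre markers 9 were higher and 3 lower under both scalings (median 2.69 with TMM). Of 6 fibroblast markers 2 were higher and 4 lower (0 and 4 with totals alone), of 9 endothelial markers 5 and 2 (0 and 9), and of 8 macrophage and leukocyte markers 2 and 4 (1 and 7). Both brown adipocyte markers and all 3 cardiac markers tested were lower, as was 1 of 4 hepatocyte markers. Cardiac sums were 979 to 2111 TPM at E18.5, nearly all from Myl4, against 2.08 to 32.2 TPM in the adults. Myl4 is also a light chain gene of embryonic skeletal muscle, so these sums do not tell heart cells from embryonic fibres. The part of these markers was not tested.

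Ratios of 2 genes within a library need no scaling factor, and 4 ratios of related enzymes were compared between the stages (exact two-sided permutation test of the log2 count ratio, Benjamini-Hochberg over 16 tests). The smallest p-value the design allows is 0.00216 for 6 against 6 libraries and 0.00433 for 5 against 6. The log2 ratio of Acsl1 to Acsl3 was 5.20 ± 0.26 (SD, n = 6) against -1.31 ± 0.25 (SD, n = 6) in adult against E18.5 soleus. It was 5.89 ± 0.36 (SD, n = 5) against -0.04 ± 0.42 (SD, n = 6) for vastus intermedius, 3.62 ± 0.81 (SD, n = 6) against -1.37 ± 0.31 (SD, n = 6) for gastrocnemius and 2.57 ± 0.60 (SD, n = 6) against -0.23 ± 0.51 (SD, n = 6) for vastus lateralis. No adult library overlapped an E18.5 library of its muscle in that ratio (adjusted exact p = 0.00433 in 3 muscles and 0.00577 in vastus intermedius). Acsl1 to Acsl4 rose by 4.61, 3.55, 2.61 and 0.80 in the same order, with overlap in vastus lateralis (adjusted exact p = 0.00742). Acacb to Acaca, the mitochondrial against the cytosolic carboxylase, rose by 4.44, 3.28, 5.36 and 4.11 without overlap. Cpt1b to Cpt1a, the muscle against the liver form of the outer palmitoyltransferase, rose by 1.25 in soleus (adjusted exact p = 0.00742), 1.07 in vastus intermedius (0.0185, a call lost with the left-out library put back) and 1.67 in gastrocnemius (0.00577), each with overlap, and its 0.36 in vastus lateralis did not pass (adjusted exact p = 0.45). The adult mean log2 ratios were still -3.20 (soleus), -2.48 (vastus intermedius), -2.95 (gastrocnemius) and -3.40 (vastus lateralis). Cpt1b thus had fewer counts than Cpt1a at both stages, and its counts were few, as described below.

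The third comparison asked whether the slow-biased against fast-biased difference was already present at E18.5. None of the 36 genes passed at E18.5 in the shank pair, the thigh pair or their average with edgeR, of 15751 genes tested. In the shank 0.286% of all genes were called (0.0952% higher and 0.19% lower), in the thigh 0.0317% (0.00635% and 0.0254%) and on average 0.368% (0.146% and 0.222%). At an unadjusted p under 0.05, 1, 2 and 2 of the genes passed, and the 36 genes' medians were 0.11, 0.12 and 0.12. DESeq2 called 0, 0 and 1 of them and limma-voom 0, 0 and 0. With the collection as a block, which compares the muscles within an animal, the counts were 0, 0 and 2 (8, 9 and 14 at an unadjusted p under 0.05), and 212 genes of all were called on average in place of 58. The genes that passed on average with the block were Fabp3 (0.62, adjusted p = 0.03) and Acadvl (0.23, adjusted p = 0.0469), both higher in the slow-biased muscles. All 36 genes overlapped between the muscles of each E18.5 pair, a count that was not made over all genes. The largest averaged value at E18.5 was 0.65 ± 0.17 for Fabp3 (adjusted p = 0.101), the gene DESeq2 called too.

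The change of that difference from E18.5 to adult passed for 31 of the 36 genes, 27 in the positive and 4 in the negative direction (50.8% of all genes called, 26.6% and 24.2%), with a median of 0.93 against 0.08 for all genes. With library totals alone it was 30 and 4. In the same contrast 8 of 9 endothelial, 7 of 8 macrophage and leukocyte, 2 of 9 adipocyte, 2 of 6 fibroblast, 2 of 2 brown adipocyte and 3 of 3 cardiac markers tested were positive and none negative, and their part was not tested. The positive values were widest in uptake, at 2.80 ± 0.28 for Lpl, 2.34 ± 0.21 for Cd36, 1.95 ± 0.32 for Fabp3 and 1.84 ± 0.21 for Slc27a1, and for Acot2 (2.25 ± 0.24) and Acaa2 (1.62 ± 0.22). The negative genes were Ucp3 (-1.24 ± 0.34), Acsl3 (-0.81 ± 0.16), Acsl4 (-0.80 ± 0.12) and Acsl6 (-0.69 ± 0.14). Crat (-0.04), Acacb (-0.06), Acot13 (0.15), Acadl (0.40) and Cpt1b (0.63) did not pass. Acacb and Acot13 thus rose strongly in every muscle without a passing change of the pair difference.

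At E18.5 the genes differed by limb segment, a comparison added after the values were seen. Thigh muscles were higher than shank muscles for 24 of the 36 genes and lower for none (24.8% of all genes called, 14.1% higher and 10.7% lower), with a median of 0.46 against -0.03. Acsl1 differed most, at 1.17 ± 0.15 (adjusted p = 1.05e-05). Embryonic Acsl1 measured 42.5 to 67.7 CPM (median 58.8) in soleus and 37.9 to 65.1 CPM (median 50.6) in gastrocnemius, with 67.4 to 185 CPM (median 128) in vastus intermedius and 70.1 to 160.1 CPM (median 117) in vastus lateralis. The thigh medians of Acsl1 stood above the shank medians, with soleus and gastrocnemius near each other and the library of collection F lowest in every muscle. Acacb followed at 1.06 ± 0.23, Crat at 0.87 ± 0.12, Acot13 at 0.83 ± 0.13, Acadvl at 0.77 ± 0.14 and Lpl at 0.73 ± 0.18. All 5 genes of the hydratase to thiolase steps, all 3 of electron transfer and all 4 auxiliary enzymes passed, with Acadm at 0.74, Hadh at 0.74, Acaa2 at 0.73, Hadhb at 0.60 and Etfdh at 0.64. Acsl3, Acsl4, Acsl5 and Acsl6 did not pass, with values of -0.09 to 0.07. The calls of Cd36 (0.37) and Fabp3 (0.47) were lost without collection A, B or C, that of Cd36 also without E and that of Fabp3 without D, and that of Decr1 (0.26) without C. All 3 were lost with totals alone. With the block Cpt1b (0.72, adjusted p = 0.0229) and Mlycd (0.22, adjusted p = 0.0302) were higher too and Acot2 was lower (-0.30, adjusted p = 0.0473).

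Skeletal fibre markers moved with the segments at E18.5: 8 of 13 were higher in the thigh, with sums of 43401 to 72966 TPM there against 23155 to 54143 TPM in the shank. Of 6 fibroblast markers 1 was also higher, as was the cardiac marker Ryr2, and none of the endothelial, macrophage or adipocyte markers passed. Their part in the segment difference was not tested. With library totals alone the count was 19 higher and 4 lower (Acsl3 at -0.21, Cpt1a at -0.25, Slc22a5 at -0.20 and Acot2 at -0.42), as the median of all genes moved from -0.03 to -0.17 and the share of all calls that were higher from 56.7% to 19.3%. The genes' median was then 0.32. In the adults the same contrast gave 2 higher and 5 lower genes (19.1% of all genes called, 11.6% higher and 7.55% lower) with a median of -0.08, 0 and 14 with totals alone, and 4 called without collection E. With the block Cpt1a was lower too (-0.36, adjusted p = 0.0126). The higher genes were Acot13 (0.32) and Crat (0.24), and the lower ones Lpl (-0.86), Acot2 (-0.67), Cd36 (-0.64), Slc27a1 (-0.60) and Acadm (-0.38). The difference between the stages in this contrast was not tested.

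One E18.5 collection was low across the genes. Collection F held the lowest value for 30 of the 36 genes in vastus intermedius, 28 in gastrocnemius, 22 in vastus lateralis and 10 in soleus, where it was lowest for 22.3%, 28.9%, 15.8% and 13.4% of 13469 genes. It was lowest in 3 or 4 of the 4 muscles for 21 of the 36 genes and for 8.89% of all. Without that or any other single E18.5 collection, the thigh against shank count was 22 to 25.

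**Figure D5:**
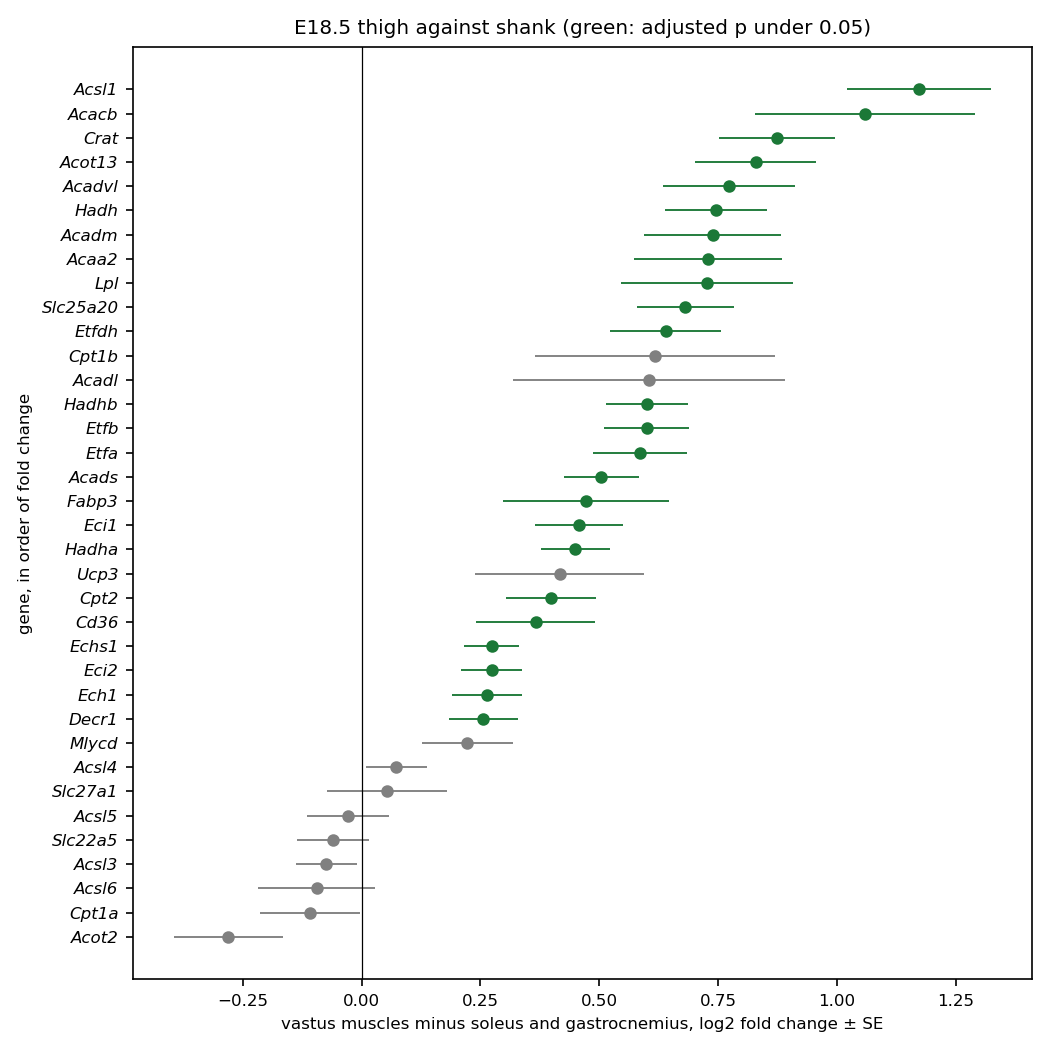
Log2 fold change of thigh against shank muscles at E18.5 for the 36 genes with standard errors, in order of fold change. The 24 genes that passed lie to the right of 0, led by Acsl1 and Acacb.

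Cpt1b and Acadl rested on few counts. Cpt1b, the muscle carnitine palmitoyltransferase, had 2107 counts over all 48 libraries, and Acadl, the long-chain dehydrogenase, had 928. Cpt1b was at 2.03 to 5.08 CPM (median 3.60) in the adult soleus libraries and at 4.40, 3.07, 4.80, 3.77 and 3.77 CPM in the 5 of vastus intermedius. In gastrocnemius Cpt1b was at 1.65 to 3.63 CPM (median 2.66), and in vastus lateralis at 0.784 to 3.12 CPM (median 1.34). These levels are low for both stages, and E18.5 medians were 0.871 to 1.56 CPM. The whole span of Cpt1b (chr15:89416405-89425862) lies inside that of the long noncoding RNA gene Gm44502 (chr15:89416405-89429927), which had 1 count in all. How reads that fall in both genes were counted was not stated, and its part in the low level was not tested. Acadl was at 0.935 to 2.32 CPM (median 1.83) in the adult soleus libraries and at 2.60, 2.30, 2.49, 1.31 and 1.78 CPM in the 5 of vastus intermedius. In gastrocnemius Acadl was at 0.211 to 1.08 CPM (median 0.739), and in vastus lateralis at 0.0984 to 11 CPM (median 0.467). Vastus lateralis of collection D, at 11 CPM, stood far above the other 5, whose highest was 0.829 CPM. Without adult collection D the vastus lateralis stage value of Acadl, 1.87 ± 0.60, was -0.35, and its average over muscles went from 1.83 to 1.22. Its call in gastrocnemius (1.40) was lost under each other scaling tried and without any 1 of adult collections B, C, E and F or E18.5 collections B, C, D and F. Acsl3 shares 9777 bases of its span with Utp14b, which had 193 counts.

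Levels were compared between genes on the per-length scale. In adult soleus Fabp3 led, at 3654 ± 811 TPM (SD, n = 6), followed by Lpl at 1480.4 ± 91 TPM, Hadhb at 1077 ± 115 TPM and Acadm at 1011 ± 99.3 TPM. In adult vastus lateralis Crat was the most abundant, at 292 ± 16.4 TPM, beside 273 ± 12.7 TPM for Etfb and 264 ± 78.6 TPM for Fabp3. At E18.5 Acaa2 led in vastus intermedius, at 406 ± 96.1 TPM, with Etfb at 371 ± 54.8 TPM and Hadh at 312 ± 51.5 TPM, and the standard deviations of these neighbours overlapped. Among the synthetases, Acsl1 was at 622 ± 97.9 TPM and Acsl3 at 16.6 ± 2.71 TPM in adult soleus, where at E18.5 Acsl1 was at 51.9 ± 7.85 TPM and Acsl3 at 126 ± 9.73 TPM, so their order was reversed between the stages.

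Other genes of the pathway were read from 4 lists, of which 107 of 108 genes were in the count table. Of 24 tested genes of other uptake and lipid droplet steps, 20 were higher and none lower in adult slow-biased muscle (median 0.61), led by the droplet coat gene Plin5 (2.91), the triglyceride synthesis gene Dgat2 (2.61) and Plin3 (2.23). Of 31 other fatty acid and ketone genes, 23 were higher and 1 lower (median 0.55), led by Bdh1 of ketone use (5.27), the thioesterase Acot1 (4.27) and the acetyl-CoA synthetase Acss1 (2.48), with the carnitine octanoyltransferase Crot lower (-1.28). In adult vastus lateralis Bdh1 was at 0 to 1.65 CPM and Acot1 at 0 to 0.415 CPM. The size of their fold changes thus rests partly on values at or near the floor. Most of this list is mitochondrial, but it also holds enzymes outside mitochondria, among them Acaca, Acot1 and Crot. Its counts therefore do not set mitochondrial against peroxisomal genes. Of 20 peroxisomal genes, 10 were higher and 3 lower (median 0.19), with Acot4 (3.10), Pex11a (1.03) and Phyh (0.93) at the top and Abcd2 (-0.97), Pecr (-0.79) and Pex7 (-0.31, or 0.02 with totals alone) at the bottom. Of 25 regulators, 14 were higher and 7 lower (median 0.35). The nuclear receptor genes Esrrb (3.93, at 0.197 to 2.58 CPM in adult vastus lateralis), Esrrg (3.27) and Ppara (2.40) were highest. The AMP kinase subunit gene Prkag3 (-4.10) and the receptor genes Rxrg (-1.88) and Rxra (-1.21) were lowest. Against these, 66% of all genes were called with a median of 0.08. Without scaling factors the 4 lists gave 22 higher and 0 lower, 29 and 1, 15 and 2, and 17 and 5 genes.

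Between the stages the same lists gave, with TMM and averaged over the muscles, 19 higher and 6 lower of 25, 24 and 7 of 32, 17 and 2 of 20, and 19 and 4 of 25, where 40.7% of all genes were higher and 47% lower. Without scaling factors these counts were 11 and 11, 15 and 13, 12 and 7, and 10 and 10, where 20.2% of all calls were higher. The 36 genes described above gave 30 higher and 5 lower under that scaling.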

How the data were processed

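Messenger RNA of 4 muscles at 2 stages was sequenced, with RNA integrity numbers above 7.0 per the labels' protocols. The authors deposited raw counts per gene with gene lengths. The submitters' processing notes name build mm10, STAR 2.7.11, featureCounts, Subread 2.0.6, Trimmomatic 0.39.0, FastQC 0.11.5 and DESeq2 1.44.0. The sources used here give no annotation or strand setting. Entrez identifiers were matched to symbols through RefSeq, and through the authors' deposited table for the rest. That table pairs all 36 genes with the same symbols. The 36 genes and all lists were chosen with earlier results of these data known.

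Counts were fitted for all genes with edgeR 4.0.16 (TMM, filterByExpr, quasi-likelihood F-test) in R 4.3.3, adult and E18.5 libraries separately and all 47 together for stage, with Benjamini-Hochberg adjustment over all genes tested at 0.05. This was tested on simulated data. Standard errors of log2 fold changes were derived from the test, as the absolute log2 fold change divided by the square root of F. Per-length levels (TPM) were computed from counts and deposited lengths. Library totals, 14935541 to 32383982 counts, set the counting precision, and no replicates agreed within sampling noise (smallest chi-square per degree of freedom 10.8). The titles number the animals, each giving all 4 muscles, and the count columns carry date tags instead, so a tag was taken as 1 animal. For a stage comparison within 1 muscle, the libraries compared come from different animals. The spread was estimated over all 8 groups together, so these p-values do not measure the spread between animals of that muscle alone. The main fits took all libraries as independent, so p-values of contrasts over several muscles do not measure the spread between animals alone either. Libraries of 1 tag deviated together with a mean correlation of 0.290 at E18.5 and 0.152 in adults (other pairs -0.056 and -0.031), with single pairs down to -0.17 and -0.30. Alternatives were RLE and upper-quartile factors, library totals alone, no filter, DESeq2 1.42.0, limma-voom (limma 3.58.1), a fit of the groups compared, the collection as a block, each collection left out, the left-out library put back, and vastus intermedius of collection C left out. The use of totals alone, the last of these, the average over muscles and thigh against shank were added after seeing the data. Genes given with every value are, in each role, those with the largest passing difference in adult muscle bias, in average stage and between the limb segments' pairs. Of the other pathway genes, the 3 highest and 3 lowest passing in each list are named.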

Additional observations from a re-analysis of the deposited data

Results flagged for a closer look

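Of the 288 sets of 5 or 6 library values (36 genes in 8 groups), 13 held a library whose gap to the nearest other was large for the range by Dixon's test at the 95% level, which chance alone gives in about 1 in 20. The high libraries were Acsl4 in adult gastrocnemius of collection D at 82.6 CPM (next 56.1 CPM), Cpt1a in E18.5 soleus of collection C at 29.4 CPM (next 19.5 CPM), Acadl in adult vastus lateralis of collection D at 11 CPM (next 0.829 CPM), Echs1 in E18.5 gastrocnemius of collection E at 51.2 CPM (next 45.1 CPM) and Acot2 in adult vastus lateralis of collection D at 19.4 CPM (next 11.7 CPM). Among adult libraries the low ones were Acsl1 in adult soleus of collection F at 899 CPM (next 1189 CPM), Eci1 in adult vastus lateralis of collection C at 63.2 CPM (next 79.1 CPM) and Acacb in adult vastus intermedius of collection E at 835 CPM (next 921 CPM). At E18.5 the low ones were Acsl3 in E18.5 gastrocnemius of collection C at 114 CPM (next 132 CPM), Crat in E18.5 vastus intermedius of collection F at 166 CPM (next 237 CPM), Acads in E18.5 vastus intermedius of collection F at 36.1 CPM (next 49.8 CPM), Ech1 in E18.5 gastrocnemius of collection F at 27.8 CPM (next 37.6 CPM) and Decr1 in E18.5 gastrocnemius of collection F at 28.2 CPM (next 33.1 CPM).

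The slow-biased against fast-biased difference differed between adult and E18.5 muscle by the interaction term of edgeR for 31 genes (log2 units). The widest positive values were Lpl at 2.80, Cd36 at 2.34, Acot2 at 2.25, Fabp3 at 1.95, Slc27a1 at 1.84, Acaa2 at 1.62, Acsl1 at 1.54, Acadm at 1.41 and Eci1 at 1.40. Next came Hadhb at 1.38, Hadha at 1.24, Etfdh at 1.10, Etfa at 1.07, Decr1 at 1.05, Acadvl at 1.02, Ech1 at 1.01, Hadh at 1.00 and Echs1 at 0.98. The smaller ones were Slc25a20 at 0.88, Cpt2 at 0.84, Etfb at 0.77, Eci2 at 0.74, Mlycd at 0.71, Acads at 0.69, Acsl5 at 0.56, Cpt1a at 0.55 and Slc22a5 at 0.54. Negative values were found for Acsl3 at -0.81, Acsl4 at -0.80, Acsl6 at -0.69 and Ucp3 at -1.24.

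The same difference in adult muscle differed between the shank and the thigh by its own contrast for 14 genes, with Fabp3 at -1.68, Acsl3 at 1.17, Acsl6 at -0.68, Cpt2 at -0.64, Crat at -0.64, Acadm at -0.78 and Acads at -0.85, and Acadvl at -0.92, Hadh at -0.69, Echs1 at -0.70, Acaa2 at -1.14, Etfa at -0.55, Etfdh at -0.78 and Acot13 at -0.65, none of which passed with the left-out library put back.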

How the results depend on the processing

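Library totals alone reversed 24 values and kept direction and side of the threshold for 522. In gastrocnemius against E18.5 they gave Cd36 -0.0758, Acsl4 -0.625, Cpt1a -1.10, Acaa2 -0.362 and Eci2 -0.611. In vastus lateralis they gave Lpl -0.619, Acsl4 -0.437, Cpt1b -0.799, Acadm -0.381, Acads -0.628, Hadha -0.332, Hadh -0.816, Echs1 -0.0465, Etfa -0.175, Etfb -0.291, Etfdh -0.300 and Eci2 -0.942. Averaged over muscles they gave Acsl4 -0.742, Cpt1a -0.677, Acaa2 -0.148 and Eci2 -0.213. Cpt1a was -0.012 in soleus between stages, Crat 0.0919 in soleus against gastrocnemius and 0.34 in the change of bias with stage. With the left-out library, Acsl3 was -0.22 in soleus against vastus intermedius, and Acadl in vastus lateralis between stages ranged from -0.35 without adult collection D to 2.11 when 1 collection was left out.

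Of the 36 genes, the adult shank pair against thigh pair called 14 and gave 0 with the left-out library, 5 with totals alone and 3 to 15 without 1 collection. Soleus against vastus intermedius called 5 and gave 0 with the left-out library, 3 with no filter, 10 in a fit of those groups and 2 to 5 without 1 collection. Vastus lateralis against gastrocnemius called 10 and gave 0 with the left-out library, 6 with limma-voom, 4 in a fit of those groups and 4 to 12 without 1 collection. Adult thigh against shank called 7 and gave 2 with the left-out library, 14 with totals alone and 4 to 9 without 1 collection. At E18.5 the averaged slow-biased against fast-biased contrast called 0 and gave 1 with DESeq2, 2 with the collection as a block and 0 to 1 without 1 collection. The causes were not tested. Without 1 collection the adult slow-biased against fast-biased count was 34 to 35 and the vastus lateralis stage count 29 to 30. The number of all genes called went, with the left-out library, from 1159 to 214 for the shank pair against the thigh pair, from 2464 to 1095 for soleus against vastus intermedius, from 807 to 220 for vastus lateralis against gastrocnemius (531 in a fit of those groups) and from 2736 to 1118 for adult thigh against shank. For E18.5 thigh against shank it went from 3909 to 7061 with totals alone. At E18.5 it went from 45 to 163 (DESeq2), 71 (limma-voom) and 101 (block) in the shank pair, from 5 to 3 (totals alone), 21 (DESeq2), 1 (limma-voom) and 1 (those groups alone) in the thigh pair, and from 58 to 273 (DESeq2) and 212 (block) on average. Without 1 collection these counts ranged from 540 to 1064, 1451 to 2590, 399 to 751, 1477 to 2745, 2869 to 3654, 9 to 34, 0 to 100 (without E18.5 collection B) and 10 to 237 (also B), in the order given.

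As the replicate block, the collection changed no call of the 36 genes other than those given above and no other count of them by over 1.5 times: it gave 31 higher and 4 lower for adult slow-biased against fast-biased. Low counts limit what can be read from Cpt1b and Acadl.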
